A study of Mus musculus with 21 samples.

Results

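Forelimb buds (FBs) of E10.5 mouse embryos cultured whole for 6 h were compared with FBs dissected from E10.5 embryos that were not cultured (0 h), over every gene with a measurement of its own. The comparison rests on 6 of the 21 arrays of the series, 3 for each group, and on 14860 genes taken from 23332 features, since a feature with several genes or with none was left out and a gene with several features was read from the one with the highest mean. All embryos were Swiss mice without any stated genetic change, and the labels name each array a biological replicate. The cultured embryos were explanted and kept in rotating, gassed bottles, and their FBs were taken after the culture, so each time point has its own embryos. Neither the number of embryos behind an array nor the sex of the embryos is stated. The p-values rest on a spread pooled over all 21 arrays, those of E12.5 embryos included, and not on the 6 compared arrays alone. Total RNA was hybridized to Affymetrix Mouse Exon 1.0 ST arrays, 1 array per sample, and every value below is a log2 RMA value (the summarized signal of the probes of a gene after background correction and normalization) or a difference between such values, where a difference of 1 is a doubling of signal. Calls required an adjusted p below 0.05, with Benjamini-Hochberg adjustment across the 14860 genes, in limma, a linear model fitted to all 21 arrays.

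The limb bud grows outward under signals from its tip. The apical ectodermal ridge, a thickened rim of ectoderm, secretes Fgfs, and the zone of polarizing activity in the posterior mesenchyme secretes Shh. Shh holds up the Bmp antagonist *Grem1*, which in turn protects the ridge, and the distal mesenchyme under these signals carries the 5′ genes of the HoxA and HoxD clusters, while retinoic acid and the Meis factors mark the proximal side.

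Both groups held an array that stood apart, less clearly so at 6 h. The root mean square distance from the other arrays of its group was 0.457 for 0 h replicate 1 against 0.289 and 0.278 for the others, and 0.484 for 6 h replicate 3 against 0.402 and 0.378. The E12.5 arrays, which enter the pooled spread, lay closer together, at distances of 0.204 to 0.269. Markers of placenta and decidua, tissue that encloses the embryo, had mean values of 5.19, 7.87 and 7.50 on the 0 h arrays and 5.45, 7.32 and 5.80 on the 6 h arrays, with 0 of 9 called. Without 0 h replicate 1, the fresh array low in them, 4 of the 9 were lower at 6 h, and without both arrays that stood apart 3 were. Liver and yolk sac markers averaged 5.66, 7.69 and 7.67 at 0 h and 5.99, 7.13 and 7.64 at 6 h, and markers of red cells 7.91, 9.65 and 10.06 against 9.85, 9.21 and 8.61. The Y-linked genes *Eif2s3y* and *Kdm5d* had means of 8.12, 6.68 and 8.21 on fresh arrays but 3.73, 7.28 and 3.94 on cultured ones. The part of these differences in the results was not tested, except where a value without an array or with a placenta and decidua covariate is given. Over all genes, 578 were higher at 6 h (3.89%) and 426 lower (2.87%), together 1004 (6.76%), and the median change was -0.04. Leaving out 0 h replicate 3 gave a total of 634, leaving out 6 h replicate 1 gave 1710, and leaving out both arrays that stood apart gave 589. That last fit keeps 6 h replicate 1, which limma array weights put at 0.369, against 1.84 for replicate 2 and 0.233 for replicate 3. The median value of 6 h replicate 3 was 6.02, against 6.34 for the other 6 h arrays.

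Many genes of the distal mesenchyme were below their fresh level after 6 h. *Zic2* (gene 22772), a zinc finger factor best known from the neural tube and forebrain, is outside the lists and fell most after *Hoxd13*. It read 9.23, 9.18 and 8.92 on the fresh arrays and 6.51, 6.14 and 5.79 after culture. The 3 cultured arrays all lay more than 2 units below the fresh ones, a change of -2.97 (standard error 0.28, adjusted p = 2.74e-06), or 7.82-fold lower. *Lhx2*, a LIM homeobox factor through which the distal mesenchyme answers the ridge, went from 11.06, 11.04 and 10.86 to 8.46, 8.84 and 8.69 (change -2.32, adjusted p = 4.49e-06). Its relative *Lhx9* went from 10.75 ± 0.15 (SD, n = 3) to 9.10 ± 0.20 (change -1.65, adjusted p = 0.000103). The Spalt factors *Sall1* and *Sall3* fell by 1.63 and 1.43 (adjusted p = 0.000243 and 1.69e-05), and *Msx1*, a homeobox target of Bmp signals, fell by 1.36 (adjusted p = 0.000626). Of the 28 measured markers of distal limb mesenchyme, 14 fell and 1 rose, against 2.87% of all genes lower, and their median change was -0.70 against -0.04 over all genes. Arrays of the groups did not overlap, with 6 h below 0 h, for 15 of the 28, against 10.8% of all genes. The fall was uneven. *Hand2*, a factor of the posterior mesenchyme that acts upstream of *Shh*, read 9.68, 9.63 and 9.65 at 0 h and 9.78, 9.55 and 9.26 at 6 h (change -0.12, adjusted p = 0.765), and *Asb4* (0.03, adjusted p = 0.924) and *Tbx3* (0.38, adjusted p = 0.168) were not called either. *Tbx2* rose by 0.68 (adjusted p = 0.0194), a call that was lost without 4 of the 6 arrays in turn. In a whole tissue, fewer cells of a type and less RNA per cell cannot be told apart, nor can culture and a different dissection margin.

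The 7 measured genes of the posterior HoxA and HoxD clusters were all lower, against 2.87% of all genes. Besides *Hoxd13*, *Hoxd11* read 9.81, 9.77 and 9.78 at 0 h and 8.53, 7.70 and 7.56 at 6 h, so that the fresh arrays were nearly identical and the cultured ones lay below each of them (change -1.85, adjusted p = 4.16e-05). *Hoxd10* changed by -1.81, *Hoxa11* by -1.78, *Hoxa10* by -1.42 and *Hoxa9* by -1.10 (adjusted p = 0.000185, 0.000172, 0.000247 and 0.00058). *Hoxd9*, the most 3′ of the HoxD members on the list, had the smallest change of the 7, -0.72 (adjusted p = 0.0295), and it was not called without 4 of the 6 arrays in turn. Some factors of the more proximal limb also fell, although most members called on the proximal list rose (9 of 19 higher and 3 lower, median 0.55). *Shox2*, a homeobox factor needed for the upper arm, went from 9.70, 10.10 and 10.10 to 8.48, 7.40 and 7.98 (4.03-fold lower, adjusted p = 7.96e-06). *Tbx15* and *Tbx18*, T-box factors of the shoulder girdle and flank, fell by 1.91 and 1.49 (adjusted p = 6.1e-06 and 0.000857), and *Osr2*, an odd-skipped zinc finger factor, fell by 2.15 (adjusted p = 1.77e-06). *Meox2*, a homeobox factor of limb muscle precursors, fell by 1.95 (adjusted p = 1.23e-05).

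Along the line from Shh to the ridge, ligand, receptor and antagonist moved the same way. *Shh* changed by -2.91 (adjusted p = 1.57e-05). *Grem1* went from 6.74, 6.76 and 7.09 to 4.57, 5.63 and 5.08, a change of -1.77 (standard error 0.27, adjusted p = 0.000357). *Ptch1*, receptor and transcriptional target of Shh, went from 10.12 ± 0.13 to 9.02 ± 0.16 (n = 3 each, change -1.11, adjusted p = 2.4e-05). *Gli1*, another target, had a change of -0.53 that was not called. In the hedgehog list, 4 of 13 measured members fell and 1 rose, the coreceptor *Cdon* (0.44, adjusted p = 0.0233). Over all genes 2.87% fell and 3.89% rose. Both *Cdon* and *Gli3* (-0.53, adjusted p = 0.0313) lost their call without 4 of the 6 arrays in turn.

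Fgf ligands fell while their receptors were not called. *Fgf4*, made by the posterior ridge, read 8.78, 8.68 and 8.61 at 0 h and 7.71, 7.26 and 6.96 at 6 h, with all cultured arrays lower (change -1.38, standard error 0.16, adjusted p = 1.77e-05). *Fgf9* fell by 0.83 (adjusted p = 0.0078), although not without 0 h replicate 3. *Fgf10*, the mesenchymal ligand that sustains the ridge, changed by -0.35 (adjusted p = 0.403). Of 8 measured ligands 3 were lower, and of 5 receptors 0, against 2.87% of all genes. Genes that read out Fgf signalling were also lower in part. *Spry4*, an inhibitor induced by Fgf receptors, went from 10.12, 10.29 and 9.94 to 7.74, 7.71 and 7.54, which is 5.47-fold lower (adjusted p = 1.03e-06). The Ets factors *Etv4* and *Etv5*, which Fgf signals switch on in the mesenchyme, fell by 1.78 and 1.56 (adjusted p = 9.47e-05 and 4.22e-05). *Spry2* fell by 1.44, *Dusp6*, a phosphatase that shuts off Erk, by 1.14, *Spry1* by 1.12 and the receptor antagonist *Il17rd* by 1.06 (adjusted p = 9.47e-05, 7.02e-05, 0.00112 and 6.29e-05). In all, 7 of 13 targets and feedback inhibitors fell and 1 rose, with a median of -1.06, against 2.87% and 3.89% of all genes. Those 7 were called without each array in turn and without both arrays that stood apart. The riser, *Flrt3* (0.50, adjusted p = 0.0336), lost its call without any single array of the 6.

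Ectodermal genes were lower in part, both of the ridge and of the covering ectoderm. *Krt5*, a keratin of basal ectoderm, read 10.04, 10.19 and 10.28 on the fresh arrays and 9.39, 7.33 and 8.37 after culture. The cultured arrays were all lower but spread widely, with replicate 1 closest to the fresh level (change -1.81, standard error 0.32, adjusted p = 0.00153). *Cd44*, a hyaluronan receptor enriched in the ridge, was tighter, at 6.39, 6.28 and 6.62 against 5.03, 4.97 and 4.90 (change -1.46, adjusted p = 4.19e-07). Of the ridge factors, *Sp6* and the homeobox genes *Dlx2* and *Dlx5* fell by 1.32, 1.01 and 1.01 (adjusted p = 0.00747, 0.000239 and 3.97e-05). *Wnt7a*, the dorsal ectoderm signal, fell by 1.35 (adjusted p = 0.00182), whereas *En1*, the ventral ectoderm factor, changed by 0.28 (adjusted p = 0.54). *Krt18*, a keratin of simple epithelia, was not called either (change 0.24, adjusted p = 0.68). Of 12 measured ridge markers 8 were lower and of 20 ectoderm markers 8, against 2.87% of all genes. In all 16 of 32 were lower, with a median of -0.76 and 0 higher. Without 6 h replicate 1 the number was 24, and without both arrays that stood apart it was 9. *Epcam*, the adhesion molecule of epithelia, fell by 0.74 (adjusted p = 0.0133) but not without 0 h replicate 3.

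**Figure D1:**
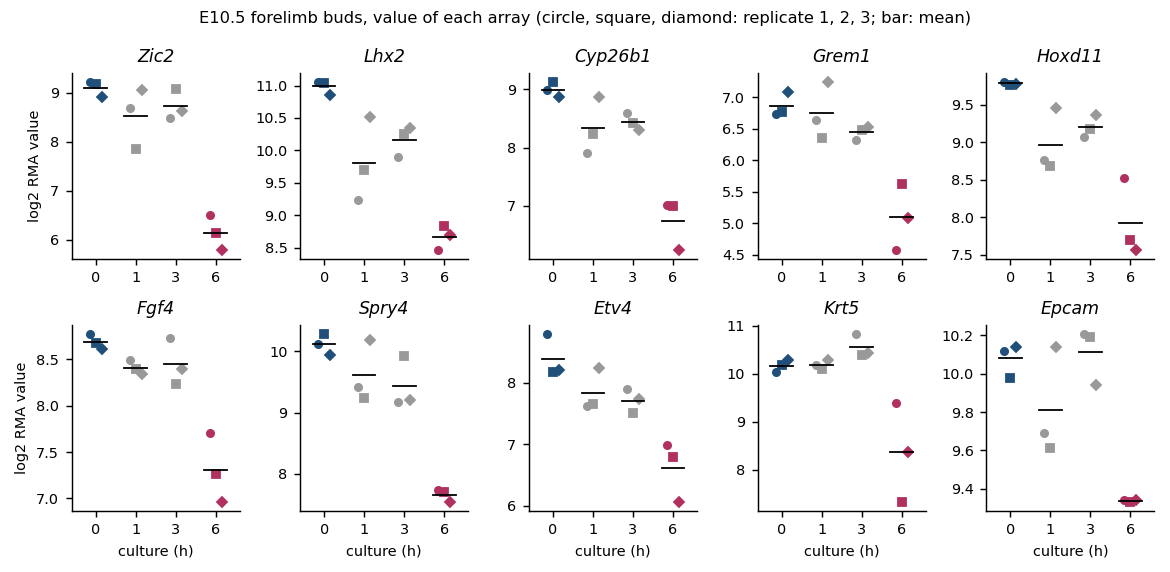
Log2 RMA values (vertical axes) of 10 genes on each E10.5 array by hours of culture (horizontal axes). *Zic2* is outside the lists, and the others are on the distal mesenchyme, Fgf target or ectoderm and ridge list. The 0 h arrays are in blue, 6 h in red, 1 and 3 h in grey, with bars for the means of 3 arrays. In each panel the 6 h arrays lie below all 0 h arrays, as for *Spry4*, with 7.54 to 7.74 at 6 h and 9.94 to 10.29 at 0 h.

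The time of the fall was examined with a comparison of 6 h with 3 h, added after the values had been seen. It does not use the 0 h arrays. It shares the 3 h arrays with the comparison of 3 h with 0 h, and the 6 h arrays with that of 6 h with 0 h. A gene that reads low on the 6 h arrays tends to be lower in both comparisons with 6 h, so their counts are not independent. Over all genes, 240 were lower at 6 h than at 3 h (1.62%) and 98 higher (0.659%), whereas at 3 h 216 were below 0 h (1.45%) and 480 above (3.23%). Of the 3 h arrays replicate 2 stood apart, at a root mean square distance of 0.521 against 0.355 and 0.306. Of the 32 ectoderm and ridge markers, 0 were below 0 h at 3 h, and 16 were lower at 6 h than at 3 h, a number that was 8 without 3 h replicate 1, without 6 h replicate 2 or without 6 h replicate 3, and 25 without 6 h replicate 1. *Krt5* read 10.84, 10.39 and 10.44 at 3 h, above its fresh values, and was lower at 6 h than at 3 h by 2.20 on the log2 scale (adjusted p = 0.00116). *Fgf4* read 8.73, 8.23 and 8.40 at 3 h (-1.15 from there to 6 h, adjusted p = 0.000655). In the distal mesenchyme list 3 of 28 were lower at 3 h than at 0 h and 13 lower at 6 h than at 3 h (8 without 6 h replicate 2), and in the Fgf target list 0 and 7 of 13 (4 without 6 h replicate 2). For *Zic2* the change from 0 h to 3 h was -0.38 (adjusted p = 0.476), and that from 3 h to 6 h -2.59 (adjusted p = 0.000203). *Lhx2* had moved earlier, by -1.17 at 1 h (adjusted p = 0.00776) and -0.82 at 3 h (adjusted p = 0.0479), and then by -1.49 from 3 h to 6 h (adjusted p = 0.00173). *Hoxa11*, at -1.42 by 1 h (adjusted p = 0.00366), changed by -0.93 from 3 h to 6 h (adjusted p = 0.0648). Placenta and decidua markers averaged 4.64 to 4.72 at 3 h, below each 6 h array, and *Prl8a2* of that list was higher at 6 h than at 3 h by 6.61 (adjusted p = 0.000394).

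**Figure D2:**
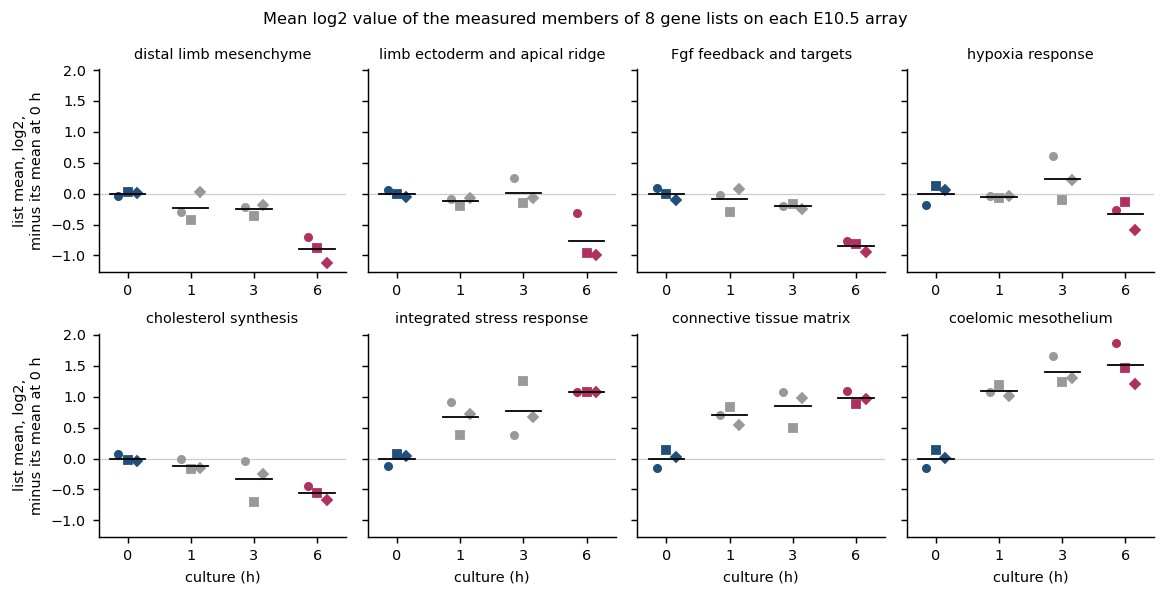
Mean log2 value of the measured members of 8 gene lists on each array, minus the mean of that list at 0 h (vertical axes), by hours of culture (horizontal axes), with bars for the means of 3 arrays. The ectoderm and ridge list averaged 8.28 to 8.40 at 0 h, 8.18 to 8.59 at 3 h and 8.02, 7.37 and 7.34 at 6 h, and the cholesterol list 9.48 to 9.60 at 0 h and 8.86 to 9.09 at 6 h.

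Other patterning signals went both ways. The counts below stand beside 3.89% of all genes higher and 2.87% lower, and a count of 1 in a list this short is close to those shares. In the retinoic acid list, *Cyp26b1*, the enzyme that destroys retinoic acid in the distal limb, went from 8.98, 9.13 and 8.86 to between 6.24 and 7.01 (change -2.24, 4.73-fold lower, adjusted p = 1.65e-05). *Rdh10*, which makes the precursor retinal, rose by 0.90 (adjusted p = 0.000549), and 2 of 11 members rose, the other being the synthetic enzyme *Aldh1a2*, and 1 fell. Of 18 genes of Bmp signalling 4 rose and 3 fell, and 2 rose without 0 h replicate 2 or without 0 h replicate 3, the calls of *Bambi* and *Id3* being lost. *Bmp5* rose by 1.77 (adjusted p = 2.38e-07) from 7.80, 7.53 and 7.45 to 9.49, 9.45 and 9.15, while *Bmp7*, a ridge and mesenchyme ligand, fell by 0.91 (adjusted p = 0.000197). Of 28 Wnt genes 5 rose and 6 fell, the latter being 3 without 0 h replicate 3 and 11 without 6 h replicate 1. The ligands *Wnt2* and *Wnt2b*, known from lung budding in mouse, rose by 4.61 and 1.40 (adjusted p = 1.03e-06 and 0.000179). *Wnt5a*, a driver of distal outgrowth, fell by 0.78 (adjusted p = 0.0088), but was not called after the arrays were shifted to a common median. The antagonists *Dkk2* and *Sfrp1* rose by 1.78 and 1.42 (adjusted p = 1.34e-06 and 0.00118), and *Nkd2*, an inhibitor of Dishevelled, fell by 1.16 (adjusted p = 4.38e-06).

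Markers of the proximal limb, girdle and flank were higher more often than lower, with 9 of 19 up and 3 down. Over all genes the shares were 3.89% higher and 2.87% lower. *Alx1*, a homeobox factor of mesenchyme, went from 8.23, 7.23 and 6.88 to 10.01, 9.82 and 9.68 (change 2.39, adjusted p = 5.13e-05). *Meis1* and *Meis2*, homeobox factors of the proximal limb, rose by 0.86 and 0.80 (adjusted p = 0.00172 and 0.00152). The 3′ Hox genes *Hoxc5* and *Hoxa5*, expressed at shoulder level, rose by 1.75 and 1.29 (adjusted p = 0.00105 and 0.00343). The 3 that fell were *Shox2*, *Tbx15* and *Tbx18*. Without 0 h replicate 2 or 0 h replicate 3, 6 members rose. Mesothelial markers, of the epithelium that bounds the coelom beside the flank, moved with these genes. Of 17, 11 were higher, the list mean being 7.06 to 7.34 on fresh arrays and 8.41 to 9.07 on cultured ones, and their part in the result was not tested. *Tbx18* is on both lists, and *Aldh1a2* is on the mesothelial list as well as that of retinoic acid.

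About as many genes of cholesterol synthesis were called lower as were not. Cells build cholesterol from acetyl-CoA by the mevalonate steps and then by the sterol steps, and the factor *Srebf2* raises these genes when sterols are scarce. *Lss*, which closes lanosterol from squalene epoxide, read 9.76, 9.82 and 9.71 at 0 h and 9.04, 8.71 and 8.33 at 6 h, all lower (change -1.07, standard error 0.22, adjusted p = 0.00617). *Sqle*, squalene epoxidase, went from 10.59, 10.41 and 10.49 to 9.99, 9.91 and 9.66 (change -0.64, adjusted p = 0.0072). *Hsd17b7*, *Sc5d* and *Nsdhl*, enzymes of later sterol steps, fell by 0.86, 0.68 and 0.53 (adjusted p = 0.00738, 0.00913 and 0.0109). Of the 6 measured mevalonate genes 2 fell, and of the 11 sterol genes 7. Together 9 of 17 fell, against 2.87% of all genes, and 0 rose. The median was -0.60, and 16 of 17 had a negative change. *Hmgcs1*, at the entry of the path, changed by -0.44 (adjusted p = 0.123). Without 1 array the number was 6 to 10, the 6 standing without 6 h replicate 2 or 6 h replicate 3. It was 1, *Cyp51*, without both arrays that stood apart, and 1 in a fit of the 12 E10.5 arrays alone. At 3 h 0 of the 17 were called below 0 h, against 1.45% of all genes, but their median change was already -0.31. Between 3 h and 6 h 1 of the 17 was called lower. The list mean at 3 h was 9.48, 8.83 and 9.27, the 8.83 being that of replicate 2, the 3 h array that stood apart. Among the regulators of sterol supply, *Srebf2* (-0.49), *Insig1* (-0.79), which retains the Srebf factors in the endoplasmic reticulum, and *Mylip* (-0.62), which targets the LDL receptor for breakdown, were called lower (adjusted p = 0.0346, 0.0307 and 0.0159), each of them only with particular arrays in the fit: the 3 became 0 without 0 h replicate 2 or 6 h replicate 3 and 6 without 6 h replicate 1. *Lipa*, the lysosomal lipase that frees cholesterol from its esters, rose by 0.92 (adjusted p = 1.03e-06), from 9.32, 9.22 and 9.26 to 10.18, 10.21 and 10.17.

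Promoters of the cholesterol genes are shown for a sequence feature that was not used to choose the genes. Windows of 300 bases around the gene start, from RefSeq on GRCm38.p6, were matched for 14 of the 17 genes. The CCAAT box (CCAAT on either strand) was found in 14 of these 14 genes, against 42.4% of the 11869 tested genes with a window and 37.4% of all 32851 windows. It was in called and uncalled members alike, the called ones being 8 of the 14. The sterol regulatory element searched for (TCACNCCAC on either strand) was in 1 of the 14, *Hmgcs1*, against 1.45% of the tested genes. A match describes the letters in the window and nothing about a factor. Capitals mark CCAAT or its reverse in *Mvk* (chr5:114444019-114444318, plus strand), *Lss* (chr10:76531355-76531654, plus strand) and *Cyp51* (chr5:4104648-4104947, minus strand), and the sterol element in *Hmgcs1* (chr13:119690101-119690400, plus strand).
Mvk: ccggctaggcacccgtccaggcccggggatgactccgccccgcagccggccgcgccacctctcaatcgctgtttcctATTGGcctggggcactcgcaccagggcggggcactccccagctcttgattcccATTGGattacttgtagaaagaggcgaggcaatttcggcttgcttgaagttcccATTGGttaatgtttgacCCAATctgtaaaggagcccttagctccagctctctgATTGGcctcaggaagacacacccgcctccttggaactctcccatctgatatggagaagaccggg
Lss: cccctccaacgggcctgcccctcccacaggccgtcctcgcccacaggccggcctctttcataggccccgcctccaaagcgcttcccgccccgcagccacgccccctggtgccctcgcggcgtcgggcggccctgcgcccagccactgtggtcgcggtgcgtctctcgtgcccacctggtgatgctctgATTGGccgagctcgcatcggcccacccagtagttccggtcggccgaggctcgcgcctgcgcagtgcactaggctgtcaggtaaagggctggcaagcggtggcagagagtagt
Cyp51: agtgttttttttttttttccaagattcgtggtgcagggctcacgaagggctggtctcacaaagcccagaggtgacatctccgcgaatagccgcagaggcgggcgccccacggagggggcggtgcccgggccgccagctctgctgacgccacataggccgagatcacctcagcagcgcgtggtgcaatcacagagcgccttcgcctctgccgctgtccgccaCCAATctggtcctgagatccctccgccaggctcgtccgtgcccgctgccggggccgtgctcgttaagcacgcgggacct
Hmgcs1: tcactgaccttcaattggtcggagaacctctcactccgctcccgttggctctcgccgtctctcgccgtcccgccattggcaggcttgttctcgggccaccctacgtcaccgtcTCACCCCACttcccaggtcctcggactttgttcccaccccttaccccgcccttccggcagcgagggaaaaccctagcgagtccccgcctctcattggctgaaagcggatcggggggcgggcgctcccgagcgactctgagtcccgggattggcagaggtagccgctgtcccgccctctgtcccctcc

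Fewer genes of fatty acid synthesis were called. The counts below stand beside 2.87% of all genes lower and 3.89% higher. *Scd1*, the desaturase that makes oleic acid, went from 11.33, 10.94 and 10.79 to 9.84, 9.79 and 9.56 (change -1.29, 2.44-fold lower, adjusted p = 0.000239). The elongase *Elovl6* and *Acsl4*, which activates arachidonic acid, fell by 0.66 and 0.91 (adjusted p = 7.61e-05 and 0.000239). *Fasn*, fatty acid synthase, changed by -0.44 and was not called. Of 20 genes of fatty acid synthesis 5 fell and 0 rose, with a median of -0.06. *Acly* and *Fads2* were the other members called, and both lost the call without 4 of the 6 arrays in turn, so that 3 remained without 0 h replicate 2, 6 h replicate 2 or 6 h replicate 3. *Mfsd2a*, outside the lists, carries lysophosphatidylcholine with long fatty acids across membranes. It was among the 15 largest falls, from 8.34, 8.58 and 8.65 to 6.93, 6.78 and 5.77 (4.08-fold lower, adjusted p = 7.93e-05). In fatty acid oxidation 3 of 21 rose, *Cpt1a*, *Cd36* and *Ech1*, of which *Ech1* alone (0.51, adjusted p = 0.00918) was called without each array in turn, while 0 of 21 were called without both arrays that stood apart. Of 26 sphingolipid genes 4 rose (3 without 6 h replicate 1, 0 without 6 h replicate 3), and of 18 genes of glycerolipids and lipid droplets 2 rose and 1 fell, none of those 3 holding without each array in turn.

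**Figure D3:**
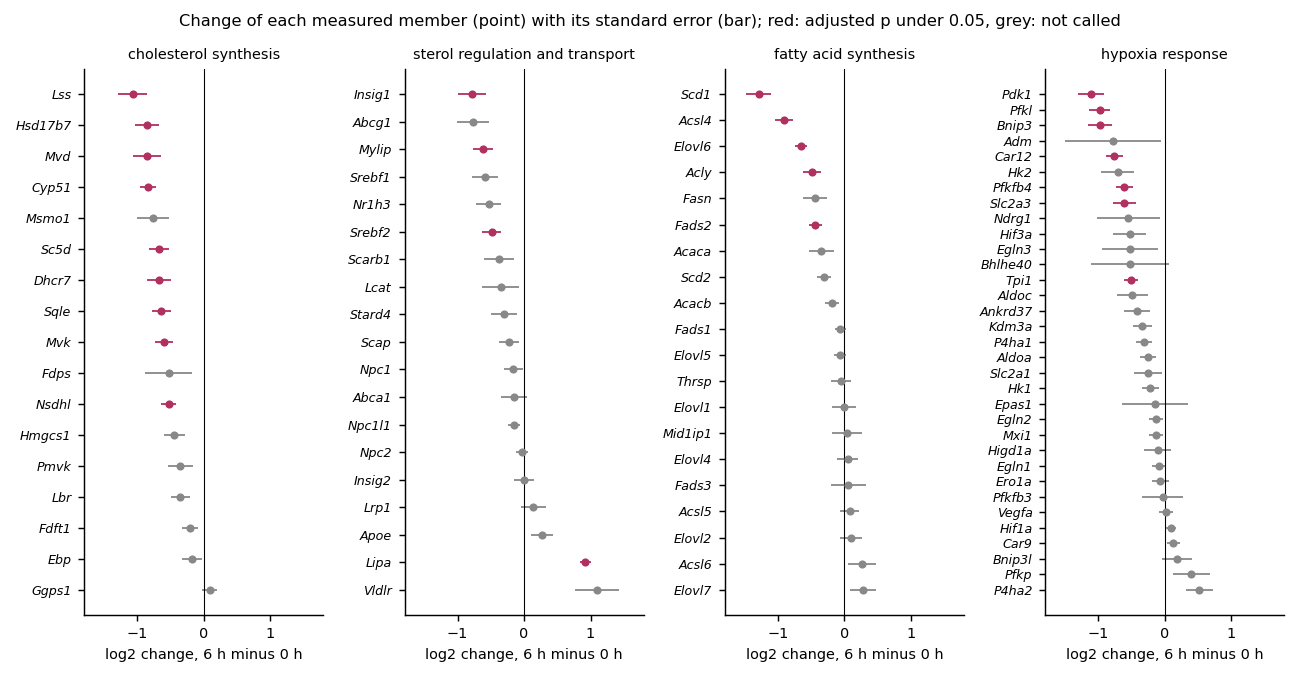
Change in log2 value from 0 h to 6 h (horizontal axes) of each measured member of 4 lists, with standard errors as bars, red where the adjusted p was under 0.05 and grey where it was not. Of the cholesterol genes 16 of 17 lie below 0, from -1.07 for *Lss* to 0.09 for *Ggps1*, and of the hypoxia genes 27 of 33.

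Among the stress lists, the most calls at 6 h were in the integrated stress response, in which phosphorylated eIF2α slows translation and lets *Atf4* raise genes for amino acid supply. *Slc7a3*, a transporter of cationic amino acids, read 5.09, 5.48 and 5.66 at 0 h and 10.02, 10.10 and 10.32 at 6 h. Its cultured arrays lay far above the fresh ones (change 4.74, standard error 0.74, adjusted p = 0.000484). *Aldh1l2*, a mitochondrial folate enzyme, went from 5.19, 5.27 and 5.23 to 9.01, 8.67 and 9.15 (13.1-fold higher, adjusted p = 0.000197), and *Pck2*, the mitochondrial PEP carboxykinase, from 7.50, 7.25 and 7.19 to 9.28, 9.20 and 9.26 (change 1.93, adjusted p = 0.000138). *Asns*, asparagine synthetase, rose by 1.52 and *Shmt2*, of serine and glycine metabolism, by 1.21 (adjusted p = 0.00642 and 0.000807). The transporters *Slc1a4* and *Slc7a5* rose by 1.78 and 1.37 (adjusted p = 0.0058 and 0.012). Of 17 amino acid supply genes 13 rose, and of 14 regulators 6. The calls of the regulators were fragile, since *Atf3* and *Ddit3* were each lost without 3 of the 6 arrays in turn, *Sesn2* without 5, *Nupr1* without 4, *Chac1* without 2 and *Atf5* without 1. None of these 6 was called without both arrays that stood apart. Calls of amino acid supply genes were fragile in part. *Slc7a1* lost its call without any single array of the 6, and *Psat1* without 2 in turn. *Asns*, *Gpt2*, *Slc7a5*, *Slc7a1*, *Slc3a2* and *Slc1a4* were not called without both arrays that stood apart. *Atf4* itself changed by 0.38 (adjusted p = 0.287), the kinases of eIF2α on the list, *Eif2ak3* and *Eif2ak4*, were not called, and *Trib3*, a feedback inhibitor, was at 1.29 with an adjusted p of 0.0775. In all 20 of 33 measured members rose and 0 fell, against 3.89% of all genes higher, with a median of 0.94. The mean of the list was 8.17, 8.37 and 8.33 on the fresh arrays and between 9.36 and 9.37 on all 3 cultured ones. The 6 h arrays lay above all 0 h arrays for 25 of the 33, against 10.6% of all genes. Without 1 array 13 to 19 rose, with 13 without 6 h replicate 3 and 14 without 0 h replicate 1 or 0 h replicate 3. Without both arrays that stood apart 7 rose.

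The members differed in their time course. *Chac1*, which degrades glutathione and follows *Atf4*, was 3.39 above 0 h at 1 h (adjusted p = 0.00366), 2.28 at 3 h (adjusted p = 0.0368) and 2.49 at 6 h (adjusted p = 0.0163, and not called without 0 h replicate 3 or 6 h replicate 3). *Shmt2* was at -0.13 at 1 h and 0.39 at 3 h, neither called, and rose by 0.81 between 3 h and 6 h (adjusted p = 0.0403). At 3 h *Slc7a3* read 6.28, 9.97 and 8.39 and *Aldh1l2* 5.67, 8.37 and 7.16, with replicate 2 of that time highest for both. At 6 h the same genes varied by less than 0.5 between arrays. Over the list, 9 of 33 were higher at 3 h than at 0 h, and 3 higher at 6 h than at 3 h (1 without 3 h replicate 1, and 7 without 3 h replicate 2, the array that stood apart).

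Promoter windows were matched for 30 of the 33 measured stress response genes. The element searched for, TGATGNAAT on either strand, known as CARE, was found in 2 of them, against 0.75% of the tested genes. They are shown because they carry the same 9 letters, and their responses were not tested against each other. *Nupr1* (chr7:126625421-126625720, minus strand), a stress-induced chromatin protein, rose by 0.94 (adjusted p = 0.0406), a call lost without 4 of the 6 arrays in turn and after either a median shift or quantile normalization of the arrays. *Fgf21* (chr7:45615441-45615740, minus strand), a hormone of the fasting response, read 5.55, 5.31 and 5.40 at 0 h and 5.36, 5.52 and 5.54 at 6 h (change 0.05, adjusted p = 0.874). Capitals mark the element.
Nupr1: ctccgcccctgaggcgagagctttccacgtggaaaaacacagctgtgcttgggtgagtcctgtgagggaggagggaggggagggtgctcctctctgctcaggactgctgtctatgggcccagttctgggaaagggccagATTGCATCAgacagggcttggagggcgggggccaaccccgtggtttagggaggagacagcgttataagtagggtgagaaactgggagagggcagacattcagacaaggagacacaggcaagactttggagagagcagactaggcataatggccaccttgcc
Fgf21: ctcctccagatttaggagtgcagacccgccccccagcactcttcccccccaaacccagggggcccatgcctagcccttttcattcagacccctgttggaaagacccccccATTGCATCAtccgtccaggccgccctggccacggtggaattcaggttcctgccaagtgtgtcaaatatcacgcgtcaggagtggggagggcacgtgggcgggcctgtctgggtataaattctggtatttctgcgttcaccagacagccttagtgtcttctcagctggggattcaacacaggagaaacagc

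**Figure D4:**
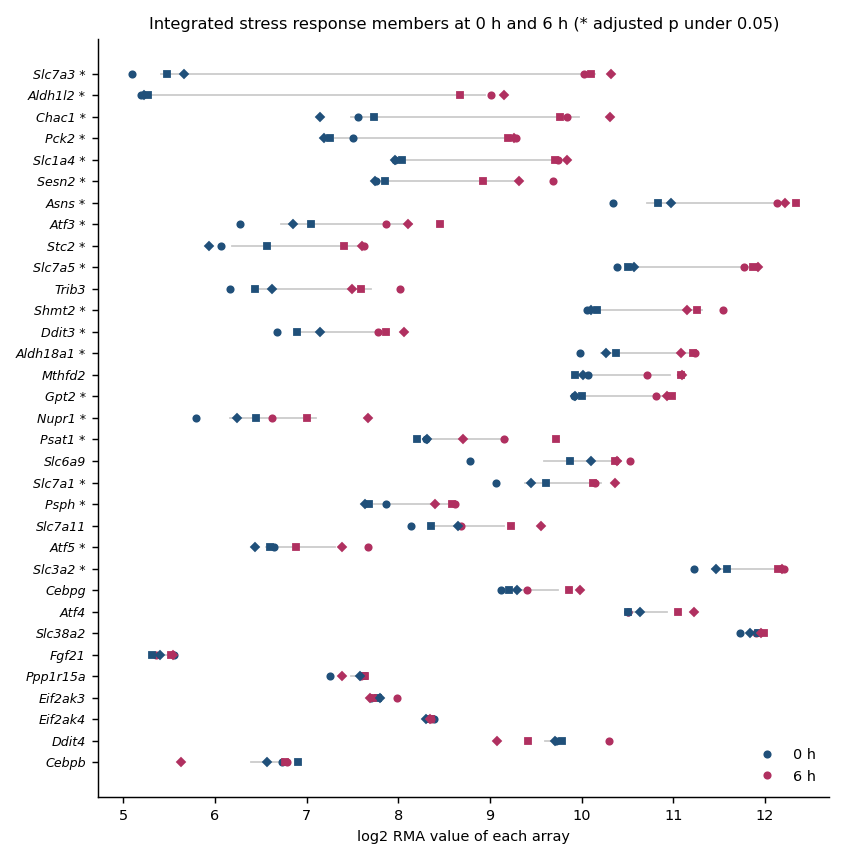
Log2 RMA values of the 33 measured integrated stress response genes (rows, sorted by change) on the 3 fresh arrays in blue and the 3 arrays of 6 h in red (horizontal axis), with circle, square and diamond for replicates 1, 2 and 3. *Slc7a3* moved from 5.09 to 5.66 up to 10.02 to 10.32, and *Fgf21* stayed between 5.31 and 5.55 throughout.

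Other stress lists held fewer calls at 6 h, beside 3.89% of all genes higher and 2.87% lower. A count of 1 in lists this short is close to those shares. *Hspa1a*, the inducible Hsp70, read 12.70, 11.04 and 12.57 at 3 h, against 7.79, 7.75 and 7.44 at 0 h and 8.20, 8.89 and 8.39 at 6 h. It had thus come down by 3.61 from 3 h (adjusted p = 0.000248), and its remaining change of 0.83 from 0 h was not called (adjusted p = 0.279). Of 15 cytosolic heat shock genes 1 was higher at 6 h, *Dnajb4* (0.52), a call lost without 4 of the 6 arrays in turn. In the endoplasmic reticulum list 6 of 20 rose and 1 fell. *Herpud1*, which serves protein disposal there, went from 9.30, 9.24 and 9.16 to 10.44, 10.35 and 10.56 (change 1.22, adjusted p = 0.00191), and *Sel1l*, of the same path, rose by 0.54 (adjusted p = 0.000412). These 2 held without each array in turn and without both that stood apart, and the other 4 did not. Of 17 oxidative stress genes 1 rose, *Nfe2l2* (0.51, adjusted p = 0.00806), the factor Nrf2. Of 27 immediate early genes 3 rose and 1 fell. *Nr4a2* (0.57) and the faller *Ier2* (-0.82) lost their calls without 3 and 4 of the 6 arrays in turn. *Jun* and *Myc* rose by 1.25 and 0.85 (adjusted p = 7.3e-05 and 0.000362), *Myc* having stood at 0.05 at 3 h. Of 19 p53 targets 1 rose, *Plk2* (1.08, adjusted p = 3.47e-05), and 2 fell, *Cdkn1a* (-1.02) and *Pmaip1* (-1.58), neither of them called without 0 h replicate 3 or 6 h replicate 3. Of 23 mitosis genes 0 were called and of 18 replication genes 1, *Ccne1* (-0.33, adjusted p = 0.0229), lost without 4 of the 6 arrays in turn. Mitosis genes had changes from -0.47 to 0.16.

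Of 33 measured genes of the hypoxia response, which the factor Hif1 raises when oxygen is short, 7 were lower at 6 h, 0 higher and 26 not called. Over all genes 2.87% were lower. *Pdk1*, a kinase that keeps pyruvate out of mitochondria, went from 9.03, 8.74 and 8.59 to 8.03, 7.91 and 7.09 (change -1.11, standard error 0.20, adjusted p = 0.00177). The glycolytic *Pfkl* fell by 0.98 (adjusted p = 0.000965), and *Car12*, a carbonic anhydrase, by 0.76 (adjusted p = 0.00127). *Bnip3*, which sends mitochondria to autophagy, read 10.02, 9.80 and 9.68 at 0 h and 8.74, 9.19 and 8.64 at 6 h (change -0.98, adjusted p = 0.00207). *Vegfa*, the endothelial growth factor, changed by 0.02 (adjusted p = 0.931). The number lower was 5 to 8 without 1 array, 4 without both that stood apart and 3 with only the 6 arrays fitted, and the median change was -0.31. At 3 h 6 of the 33 had been above 0 h, and 11 were lower at 6 h than at 3 h (9 to 15 without 1 array). *P4ha1*, a collagen prolyl hydroxylase, was 0.76 above 0 h at 3 h (adjusted p = 0.00136) and then fell by 1.07 (adjusted p = 0.000248). For *Bnip3* the step from 3 h to 6 h was -1.52 (adjusted p = 0.000248). Promoter windows of 28 members were read for ACGTG on either strand, the core of the hypoxia element. It was in 19 of the 28 and in 25.8% of the tested genes. Of the 6 called members with a window, 1 held it, *Bnip3* (chr7:138909457-138909756, minus strand), whose window is shown with the core and its overlapping reverse in capitals.
Bnip3: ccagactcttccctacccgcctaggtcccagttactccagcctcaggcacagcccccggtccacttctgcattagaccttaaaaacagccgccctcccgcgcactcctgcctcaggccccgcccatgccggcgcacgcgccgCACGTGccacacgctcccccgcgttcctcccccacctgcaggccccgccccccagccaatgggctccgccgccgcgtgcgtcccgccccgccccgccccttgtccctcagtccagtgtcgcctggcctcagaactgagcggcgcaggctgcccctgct

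Other genes among the 15 largest falls and 15 largest rises were found outside these groups. *Vwde*, a secreted protein with von Willebrand and EGF domains, read 6.35 to 6.37 on the 0 h arrays and 3.48 to 3.54 on the 6 h arrays (change -2.86, adjusted p = 2.74e-06). *Mab21l1*, known from eye development, fell by 2.52 (adjusted p = 4.86e-05), and *Cbln1*, a secreted organizer of synapses, by 2.01 (adjusted p = 6.46e-05). The largest rise of all was that of *Tnc*, tenascin C of the matrix (5.08, adjusted p = 3.46e-09). *Efemp1*, a fibulin of the matrix, rose by 3.42 (adjusted p = 8.66e-10) and *Thbs4*, a thrombospondin, by 3.09, and the mesothelial genes *Upk3b*, *Gata5* and *Lrrn4* by 3.62, 3.38 and 3.07. *P2rx3*, an ATP-gated channel of sensory neurons, went from 5.62, 5.97 and 5.68 to 9.61, 9.12 and 9.16. It was 0.61 above 0 h at 3 h (adjusted p = 0.338) and rose by 2.93 between 3 h and 6 h (adjusted p = 0.000248). *Gal*, the neuropeptide galanin, went from 5.47, 4.57 and 4.55 to 8.60, 8.46 and 8.60 (change 3.69, adjusted p = 1.09e-05). Beside these, 3 of 9 markers of neural crest and Schwann cells rose (list mean 7.03 to 7.32 on fresh and 7.81 to 7.92 on cultured arrays), against 3.89% of all genes. Of 17 markers of neurons 1 rose, *Nefm*, whose call was lost without 4 of the 6 arrays in turn. The part of these cells in the result was not tested. *Ndnf*, a secreted neurotrophic factor, *Ppp2r2b*, a subunit of protein phosphatase 2A, and *Hey2*, a target of Notch, rose by 3.55, 3.25 and 2.63 (adjusted p = 5.69e-07, 3.06e-07 and 1.77e-05). The 15 largest falls and 15 largest rises were picked only among called genes whose 6 h arrays lay outside the range of the 0 h arrays.

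**Figure D5:**
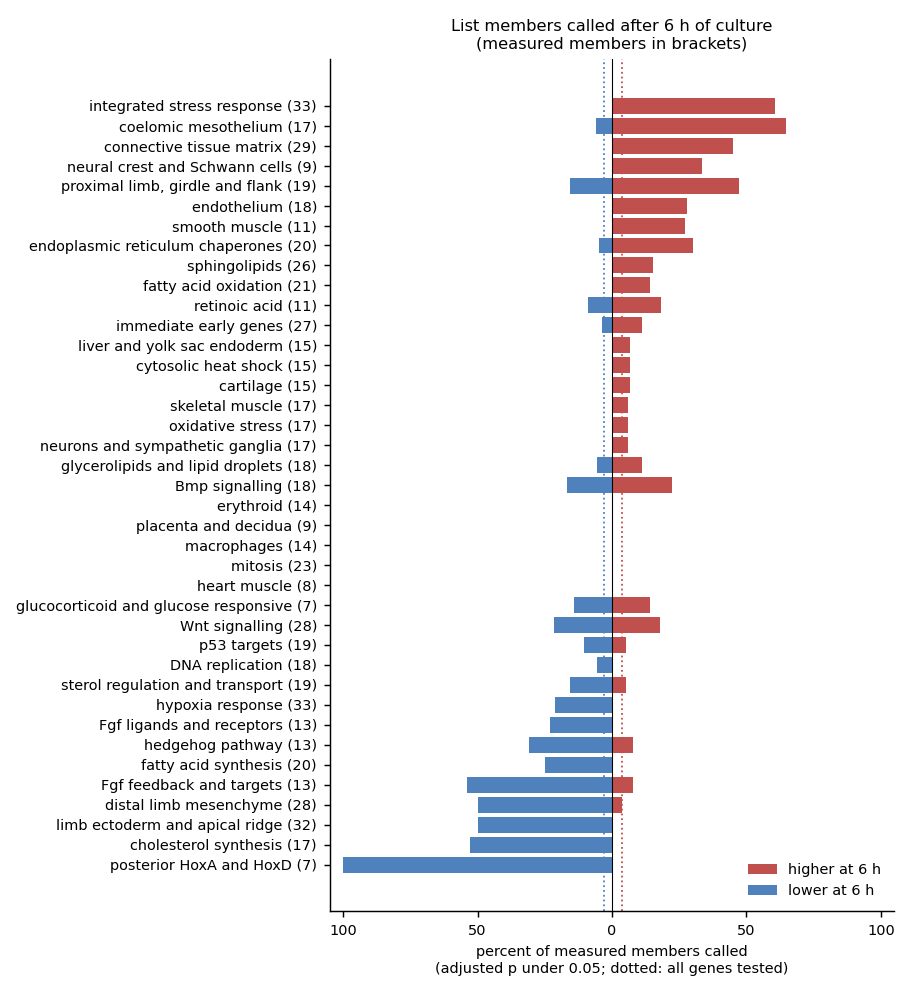
Share of the measured members of each gene list called higher (red, to the right) or lower (blue, to the left) after 6 h, in percent (horizontal axis), with dotted lines at the shares over all genes, 3.89% and 2.87%. The posterior Hox list lies farthest to the left, with 7 of 7 lower, and in the stress response list 20 of 33 were higher.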

How the data were processed

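The deposited values are log2 signals that the authors obtained by RMA, using Affymetrix Expression Console, with 1 value per transcript cluster and array. The software version and the genome build behind the gene positions are not given in the sources used here. Of 23332 features, 14996 named 1 gene, 1019 several and 7317 none. For the 135 genes with more than 1 cluster the one with the highest mean was kept (in 26 of them the clusters were negatively correlated), which left 14860 genes, and 0 columns belonged to no sample. Probe values were not used, so the number of arrays limits the precision.

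Samples were grouped by their labels. A linear model with 1 mean per group was fitted to all 21 arrays with limma 3.58.1 in R 4.3.3 (14 residual and 3.09 prior degrees of freedom), and 6 h was contrasted with 0 h. The comparison of 6 h with 3 h was added after the values had been seen. The contrasts share arrays and 1 estimate of the spread. An exact permutation test of 3 arrays against 3 cannot give a two-sided p below 0.1 and was not used. The code was tested on simulated data.

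The members and lists were chosen with earlier results of these data known. Genes were named if they were among the 15 largest rises or 15 largest falls that were called and did not overlap, if they were in a list, or if the study names them. Of 835 list members, 710 were measured. Promoters and gene names came from RefSeq (GRCm38.p6), which matched 14941 features. Alternatives covered the scaling of arrays, array weights, the arrays fitted, the filter on dim genes and the choice of cluster. They also covered the replicate number as a block, a placenta and decidua covariate, the methods' t-test and the omission of arrays.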

Additional observations from a re-analysis of the deposited data

How the results depend on the processing

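The number of genes called at 6 h against 0 h was 1004. It was 634 (without 0 h replicate 3) to 1710 (without 6 h replicate 1, with 710 higher and 1000 lower) when 1 array was left out. It was 2065 with array weights, 343 with only the 6 arrays fitted, 453 with only the 12 E10.5 arrays, and 589 without both arrays that stood apart. The methods' t-test called 71 after Benjamini-Hochberg adjustment and 701 at its unadjusted threshold. Other thresholds gave 482 at an adjusted p under 0.01, 1532 at an unadjusted p under 0.01, and 666 at an adjusted p under 0.05 with a fold of at least 1.5. Setting all arrays to 1 median gave 1085 genes, 692 higher and 393 lower. Quantile normalization gave 1438, 807 higher and 631 lower. For 6 h against 3 h the number was 338, and 167 (without 6 h replicate 2) to 900 (without 6 h replicate 1) with 1 array left out, with 190 when 3 h replicate 1 was dropped and 176 when 6 h replicate 3 was. The fit with the replicate number as a replicate block gave 1022 genes for 6 h against 0 h. The numbers were not taken to pair the samples, since the correlations of their deviations were 0.1928, 0.3282 and -0.0674. Of 198 named or listed genes called, 131 were called without each single array in turn and 0 reversed in any setting tried. Of the 198, 170 were not called by the methods' t-test after Benjamini-Hochberg adjustment, 84 with only the 6 arrays, 73 without both arrays that stood apart, 67 with only the 12 E10.5 arrays, 19 at a common median, 11 with placenta and decidua markers as a covariate, 6 with the block and 5 with array weights. The settings that leave out arrays rest on fewer of them. Those without the E12.5 arrays also rest on the spread of E10.5 arrays alone. The cause of the other changes was not tested.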

Other observations

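Of 29 measured genes of connective tissue matrix, 13 were higher after 6 h and 0 lower (median 0.53), against 3.89% of all genes higher. At 1 h 9 of them were higher and at 3 h 12 (medians 0.49 and 0.58), against 414 and 480 of all 14860 genes. *Tnc*, tenascin C, an adhesion-modulating glycoprotein, went from 6.53, 6.25 and 6.13 to 11.57, 11.33 and 11.26, a 33.9-fold rise (adjusted p = 3.46e-09). *Thbs4*, a thrombospondin of tendon, *Col12a1*, a collagen bound to fibril surfaces, and *Lum*, a proteoglycan that spaces them, rose by 3.09, 1.54 and 1.52, and *Col1a1* by 1.14. Of the 13, 12 were called without each array in turn, *Fn1* being the exception. Cartilage genes showed no such shift, with 1 of 15 called, *Sox6*, a call that was lost without 0 h replicate 2. In the paper *Ncam1*, *Tnc*, *Col1a1* and *Sox6* each fall in 1 or more array clusters that were back at their starting level after 6 h. It reports the same return for these genes by RT-qPCR. *Ncam1* is outside the lists, and its value is not given here. It also shows some probe sets of *Tnc* and of *Jun* up and others down. In the values used here *Tnc*, *Col1a1* and *Sox6* were called higher at 6 h. The reason for this difference was not tested, since probe values were not used.

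Markers of other cell types rose as well, beside 3.89% of all genes higher at 6 h. At 1 h and 3 h, 414 and 480 of all 14860 genes were higher. For the coelomic mesothelium, the lining of the body cavity, 11 of 17 were higher and 1 lower (median 1.40), all 11 without each array in turn. The list averaged 7.06, 7.34 and 7.22 at 0 h and 9.07, 8.67 and 8.41 at 6 h. Its rise was present early, with 11 of the 17 higher at 1 h and 12 at 3 h (medians 0.94 and 1.36). *Upk3b*, a uroplakin of mesothelium, went from 6.34, 6.72 and 6.70 to 11.01, 9.96 and 9.65, and the factors *Gata5*, *Gata6* and *Wt1* rose by 3.38, 2.47 and 1.82. *Lrrn4*, another mesothelial marker, rose by 3.07. Of 18 endothelial markers 5 were higher, including *Tek* (1.36), *Emcn* (1.08) and *Kdr* (0.89), and of 11 smooth muscle markers 3, *Acta2* (2.07), *Tagln* (1.39) and *Tpm1* (0.75). Of 9 markers of neural crest and Schwann cells, 3 were higher (median 0.71), the endothelin receptor *Ednrb* (1.73), the neurotrophic coreceptor *Gfra3* (0.86) and the factor *Ets1* (0.71), all without each array in turn, while *Sox10*, a defining factor of these cells, was at 0.26 and was not called. More of the 9 neural crest and Schwann cell markers were called earlier, 7 at 1 h and 4 at 3 h (medians 0.69 and 0.67). Of 14 erythroid and 14 macrophage markers 0 were called, by limma, and of 8 heart markers 0.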
